A study of Mus musculus with 4 samples.

Results

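Snf2h, the product of Smarca5, is an ATPase of the ISWI family of chromatin remodellers. ISWI ATPases slide nucleosomes along DNA and space them evenly. They work in complexes whose large non-catalytic subunits direct them to their sites, and Snf2h is the main ISWI ATPase of dividing neural progenitors, while Snf2l, the product of the paralog Smarca1, is known from differentiating neurons. The genes described here are Smarca5, Smarca1, the pseudogene Smarca5-ps and the genes of 7 partner subunits, Baz1a, Baz1b, Baz2a, Baz2b, Bptf, Rsf1 and Cecr2. Array features were chosen by name, as those whose symbol in the platform annotation is the current symbol or a RefSeq synonym of one of these 10 genes. This gave 22 features, of 30457 with a gene symbol and 38880 in all, and every gene had at least 1.

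Cerebella of mice in which Smarca5 was conditionally deleted (cKO) were compared with those of wild-type mice, both C57Bl/6 and both dissected on postnatal day 0. Each of 4 two-colour arrays carried cKO RNA and wild-type RNA, from 3 RNA samples per genotype. The cKO RNA was labelled with Cy5 on replicates 1 and 3 and with Cy3 on replicates 2 and 4. Replicates 3 and 4 shared a cKO sample and replicates 1 and 4 a wild-type sample. The labels name neither the Cre line nor the deleted part of Smarca5, nor do they say whether the wild-type mice carried any modified allele or whether animals were pooled. Loss of the gene in some cells or in all of them is therefore not distinguished, and fewer cells of a type and less RNA per cell cannot be told apart in whole cerebella.

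Values are given as the log2 of cKO over wild-type signal, after the median of each array was set to 0. A value of -1 thus means a fold of 2 lower in cKO if the base is 2, as was assumed. No absolute level was given with the ratios, so neither the expression of the members nor the tissue could be checked by marker levels. The direction of the ratios is likely but not stated with the values. It rests on the labels, which place cKO in channel 2 on every array, and on the sign of the Smarca5 feature itself. A further 48 unnamed features at a fixed step of 810 in feature number were taken to be single-dye signals. Their ratios changed sign with the dye, except 1 of them on replicate 3 (medians -7.03 and -6.39 with cKO in Cy5, 7.04 and 6.61 with cKO in Cy3). These features bear on whether the arrays are oriented alike, and on the direction only if their dye is known. That sign is therefore no independent check of the direction.

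The ratios of single features reproduced poorly in this series. Among 4467 genes with 2 features, the Pearson correlation between both features of a gene was 0.05, 0.00320, 0.03 and 0.04 on replicates 1 to 4, across genes, which are not independent replicates. Between arrays, ratios correlated across features at -0.12 to 0.05. Replicate 1 stood apart in Hox genes. Of 13 features of anterior Hox genes, which mark hindbrain and spinal cord, 11 lay above 0 there with a median of 2.56 and a range of -0.19 to 5.42, and the medians were -0.02, -0.57 and -0.21 on replicates 2 to 4. On the same array 10 of 11 oligodendrocyte features lay above 0 (median 0.40, against -0.06, 0.10 and -0.12 on the others). Of the 12 features of cerebellar genes, 10 lay below 0 on replicate 1, against 6, 8 and 8 on replicates 2 to 4. Their medians were -0.33, 0.09, -0.16 and -0.29 on replicates 1 to 4, so replicate 1 was lowest but close to replicate 4.

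The targeted gene had a feature listed under its own name, UT29744. Its log2 ratio was -0.36, -1.17, -1.43 and -0.75 on replicates 1 to 4, below 0 on every array and in both dye orientations. The ratios placed it at the 25.1, 3.06, 0.929 and 7.37 percentile of the features of each array, so on replicate 1 it lay well inside the bulk of features. The mean was -0.93 ± 0.47 (SD, n = 4 arrays), with -0.90 over the arrays with cKO in Cy5 and -0.96 over those with cKO in Cy3. Fitted with limma with arrays that share RNA treated as correlated, the ratio was -0.99 ± 0.29 (SE) with a 95% interval of -1.70 to -0.28, which is 1.98-fold lower in cKO. Its unadjusted limma p was 0.0145, and its adjusted p over all 30457 features was 1.00, so it did not pass. Fitted as independent arrays it was -0.93 ± 0.23 (SE, adjusted limma p 0.999). With the columns of the dye-flip arrays turned, the fitted ratio was -0.21 (limma p 0.791). Before turning, the medians of the features taken to be single-dye signals changed sign with the dye. If they are such signals, the columns were already oriented alike by genotype, and turning sets the dye-flip arrays the wrong way round. The turned values, here and below, are then no test of the ratios. Without replicate 1, the array with the high Hox ratios, the fitted ratio was -1.12, with replicate 4 then gaining weight. Whether what raised the Hox ratios bears on the Smarca5 value was not tested.

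The second Smarca5 feature, UT02083, is annotated with the clone name D030040M08Rik, which RefSeq lists as a synonym of Smarca5. Its log2 ratio was 0.01, 0.33, 0.10 and 0.47 on replicates 1 to 4, above 0 on every array, and the mean was 0.23 ± 0.21 (SD, n = 4). These values lay at the 50.4, 76.5, 59.2 and 81.4 percentile of the features of each array. The fitted ratio was 0.15 ± 0.26 (SE), with an interval of -0.50 to 0.79 (limma p 0.596), and with the dye-flip columns turned it was -0.07. The interval leaves out a decrease as large as the fitted one of the Smarca5-named feature. On each array the Smarca5-named feature lay below the clone-named one, by log2 differences of -0.37, -1.50, -1.53 and -1.22. The mean difference was -1.16 ± 0.54 (SD, n = 4), with an exact two-sided sign-flip permutation p of 0.13, the smallest that 4 arrays allow, and 0.13 after Benjamini-Hochberg adjustment over the 2 differences computed. Which transcripts or exons either feature detects is not known here. When both features were averaged under Smarca5 the fitted ratio was -0.42 (limma p 0.116).

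Smarca5-ps, which RefSeq annotates as a transcribed pseudogene, had the lowest ratio of the 22 features. Its feature, UT14271, is listed under the clone name 9230115A19Rik. The log2 ratio was -1.10, -1.60, -1.21 and -1.95 on replicates 1 to 4, below 0 on all arrays, and the mean was -1.46 ± 0.39 (SD, n = 4). It lay at the 5.88, 1.12, 1.66 and 0.384 percentile of the arrays, and its mean was the 19th lowest of all features with a symbol. The fitted ratio was -1.30 ± 0.35 (SE) with an interval of -2.17 to -0.44, which is 2.47-fold lower in cKO. Before adjustment its limma p was 0.0104, and the adjusted p was 1.00. Fitted as independent arrays it was -1.46 ± 0.21 (SE), with the fifth lowest p of all features (limma p 0.000312, adjusted p 0.999). With the dye-flip columns turned the fitted ratio was -0.24 (limma p 0.852). A pseudogene can resemble its parent gene in sequence, so signal of the pseudogene and of Smarca5 transcripts on this feature cannot be told apart.

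Smarca1, the gene of Snf2l, had a single feature, UT18769, with log2 ratios of -0.18, -0.11, 0.27 and 0.17 on replicates 1 to 4. The values lay on both sides of 0 within each dye orientation, and the mean was 0.04 ± 0.22 (SD, n = 4). The fitted ratio was -0.01 ± 0.23 (SE, limma p 0.978), and its sign differed between settings. The interval of -0.58 to 0.57 leaves out a log2 ratio of 1 in either direction, if the direction and the log base are as assumed. The Smarca5-named feature lay below the Smarca1 feature on all 4 arrays, by -0.18, -1.06, -1.70 and -0.92. The mean difference was -0.96 ± 0.62 (SD, n = 4), with an exact two-sided sign-flip permutation p of 0.13 before and after adjustment. With dye-flip columns turned this mean difference was 0.03, and the difference between the Smarca5 features was 0.21.

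**Figure D1:**
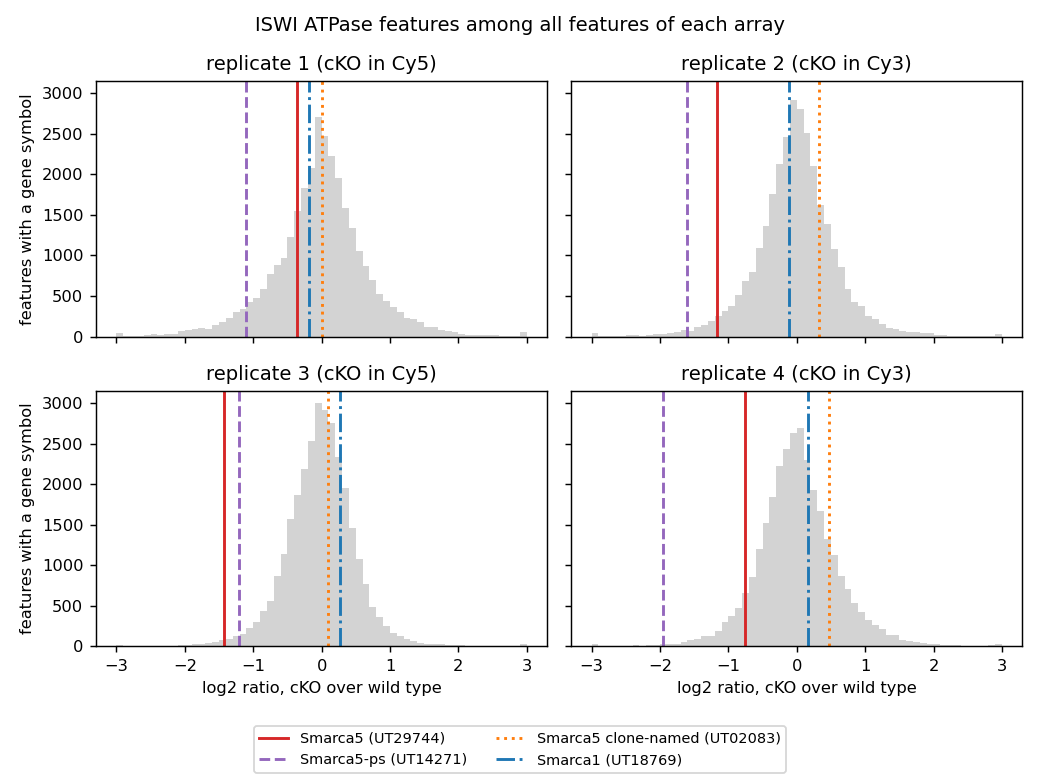
Each panel is 1 array. Grey bars count features with a gene symbol by log2 ratio of cKO over wild type (x axis, bins of 0.1, with values beyond 3 in either direction put in the end bins), and vertical lines mark the features of Smarca5, Smarca5-ps and Smarca1. The Smarca5-named and Smarca5-ps lines lie left of 0 in every panel. The clone-named Smarca5 line lies right of 0 in every panel, at 0.01 to 0.47, and the Smarca1 line lies on either side of 0.

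The shared RNA samples allowed samples of 1 genotype to be set side by side, together with the error of both arrays and the change of dye. Replicates 4 and 1 had the same wild-type sample and different cKO samples. Their log2 ratios differed by -0.39 for the Smarca5-named feature and by -0.85 for Smarca5-ps (replicate 4 minus replicate 1), where the median size of this difference over all features was 0.48. Replicates 4 and 3 had the same cKO sample and different wild-type samples. There the differences were 0.68 for Smarca5 and -0.74 for Smarca5-ps, again with a median size of 0.48 over all features. For Smarca5 the step between arrays that shared a cKO sample was thus nearly as large as its ratio of -0.75 on replicate 4.

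Baz1a encodes Acf1, the large subunit of the ACF and CHRAC complexes, which space nucleosomes and act in replication of heterochromatin. Its 3 features disagreed. The feature listed as Baz1a, UT31278, had log2 ratios of -0.87, -0.23, -0.42 and 0.59 on replicates 1 to 4. Both others are listed under the clone name BC065123. UT04936 had 1.04, 0.18, -0.10 and 1.59, and UT03691 had 0.74, -1.06, -0.42 and -0.60. On replicate 1, UT04936 and UT03691 lay above 0 while UT31278 lay below, so no direction was shared by the features of the gene. The fitted ratios were -0.51 ± 0.48, 0.37 ± 0.48 and -0.25 ± 0.45 (SE) in the order given, with limma p between 0.331 and 0.605. Baz1b encodes WSTF, the partner of Snf2h in the WICH complex at replication foci, and a kinase of the histone variant H2A.X. Its feature gave 0.13, -0.09, -0.89 and -0.30 on replicates 1 to 4, with the lowest value on replicate 3. The fitted ratio was -0.28 ± 0.28 (SE, limma p 0.354).

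Baz2a encodes Tip5, which joins Snf2h in the NoRC complex that silences ribosomal RNA genes. Feature UT32484 stayed close to 0, at 0.23, 0.05, -0.19 and 0.17 on replicates 1 to 4. UT17619 had -0.40, 0.24, 0.54 and 1.30, and UT27465 had -0.96, 0.14, 0.61 and -0.88. These 2 features lay on the same side of 0 on replicates 1 to 3 and on opposite sides on replicate 4. The fitted ratios of the 3 features lay between -0.07 and 0.13, in a fit that gives replicate 4 no weight. Their means over all 4 arrays were 0.07 for UT32484, 0.42 for UT17619 and -0.27 for UT27465. Baz2b, a related bromodomain protein gene, had 2 features, both listed as 5830435C13Rik. UT08646 gave -0.10, 0.28, -0.22 and 0.70 and UT36239 gave 0.67, 0.51, -0.57 and -0.79 on replicates 1 to 4. On replicates 1 and 4 the features lay on opposite sides of 0. Fitted ratios were -0.01 ± 0.37 and 0.20 ± 0.42 (SE).

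Bptf encodes the large subunit of NURF, an ISWI complex that reads methylated histone H3 and assists transcription factors. Its 3 features are listed under the older symbol Falz. UT18427 was above 0 on all arrays by little, at 0.08, 0.09, 0.31 and 0.03 on replicates 1 to 4. UT04134 gave 0.46, -0.68, 0.02 and 0.16, and UT33922 gave 0.24, -0.85, -0.44 and 0.50. On replicate 2 these 2 features lay far below 0, while the third did not. Fitted ratios were 0.16 ± 0.23, -0.07 ± 0.29 and -0.35 ± 0.35 (SE), and the lowest limma p of the 3 was 0.353.

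Rsf1 encodes the histone chaperone subunit of the RSF complex with Snf2h. Its 3 features, listed under 3 older names, were the most alike of any gene with several features here, which was seen after the values were known. UT05795 gave -0.40, 0.20, -0.26 and -0.56, UT26143 gave -0.17, 0.09, -0.47 and 0.03, and UT31751 gave -0.32, 0.26, -0.42 and -0.13 on replicates 1 to 4. All 3 lay below 0 on replicates 1 and 3, where cKO RNA carried Cy5, and above 0 on replicate 2, where it carried Cy3. On replicate 4, also with cKO in Cy3, only UT26143 lay above 0, at 0.03. Their means over the arrays with cKO in Cy5 were -0.33, -0.32 and -0.37, and those with cKO in Cy3 were -0.18, 0.06 and 0.07. The part of the dye in this pattern was not tested. The fitted ratios, in which replicate 4 has no weight, spanned -0.18 to -0.15, and the means over all 4 arrays spanned -0.26 to -0.13. The fitted ratios had SEs of 0.25 to 0.26, with limma p between 0.511 and 0.565.

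Cecr2 encodes the partner of Snf2l in the CERF complex and is needed in mice for closure of the neural tube. UT38609, listed under the synonym Gtl4, had log2 ratios of 0.42, 0.41, 0.21 and 0.73 on replicates 1 to 4, all above 0, with a mean of 0.44 ± 0.21 (SD, n = 4). UT13108 gave 1.43, 0.12, -0.08 and 0.27, where replicate 1 was far above the others, and UT32188 gave 0.12, -0.44, -0.30 and -0.10. The third feature was below 0 on 3 of 4 arrays, so the features of Cecr2 did not share a direction. The fitted ratio of UT38609 was 0.35 ± 0.26 (SE), with an interval of -0.29 to 0.98 (limma p 0.230, adjusted p 1.00). Fitted as independent arrays it was 0.44 ± 0.17 (SE, limma p 0.0415, adjusted p 0.999). UT13108 had 0.49 ± 0.37 and UT32188 -0.21 ± 0.24 (SE).

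**Figure D2:**
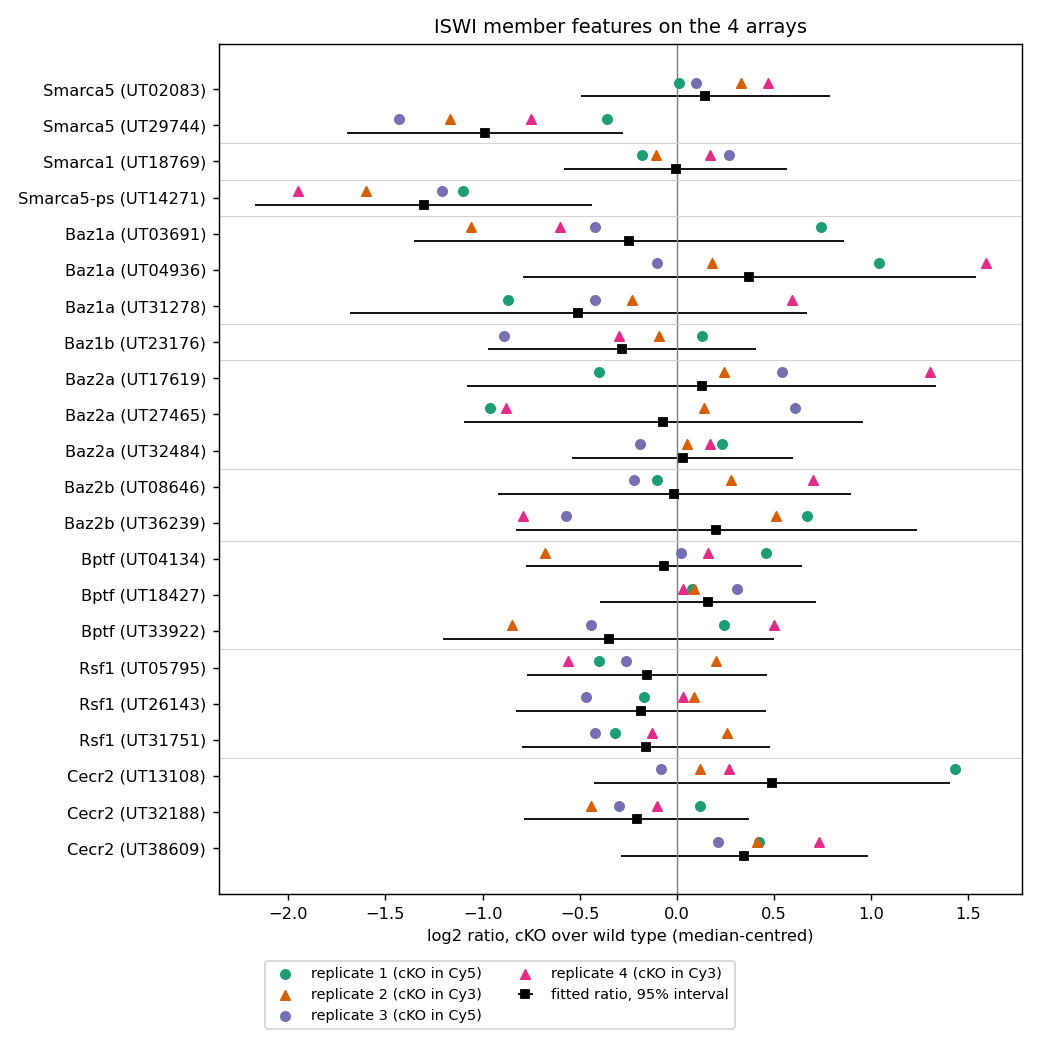
Log2 ratios of cKO over wild type (x axis) for the 22 features, grouped by gene. Coloured points are the 4 arrays (circles with cKO in Cy5, triangles with cKO in Cy3), and black squares with bars are the fitted ratios with their 95% intervals. The bars of UT29744 (Smarca5) and UT14271 (Smarca5-ps) lie below 0 and the other 20 cross it.

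Over the 22 features, limma with Benjamini-Hochberg adjustment called 0 higher and 0 lower in cKO, as it did over all features (0% in each direction). An unadjusted p under 0.05 was reached by 2 features on the lower side, Smarca5 UT29744 and Smarca5-ps, against 0.729% of all features, and by 0 on the higher side, against 0.653%. Fitted as independent arrays, the lower count was the same 2 features against 2.36% of all features, and on the higher side Cecr2 UT38609 reached such a p, against 2.27%. The ratios were below 0 on all 4 arrays for 2 of 22, or 9.09%, where the share over all features was 5.55%. They were above 0 on all 4 arrays for 3 of 22 (Smarca5 UT02083, Bptf UT18427 and Cecr2 UT38609), or 13.6%, against 5.34%. The sign of the Smarca5-named feature had been used to choose the direction, so its count on the lower side carries no weight for that direction.

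The 7 partner subunits and the paralog Smarca1 lay near 0 as a group. Their 19 features had a median fitted ratio of -0.07, with 12 below 0 and 7 above, where all features had a median of -0.01 and 51.5% below 0. Their fitted ratios ran from -0.51 (Baz1a UT31278) to 0.49 (Cecr2 UT13108). Without replicate 1 these ratios were -0.05 and 0.11, and without replicate 3 that of UT31278 was -0.18. Leaving out either array also brings in replicate 4, which has no weight in the full fit. On replicate 4 UT31278 was at 0.59 and UT13108 at 0.27. The shifts are thus not those of the array left out alone. The precision differed between features, with SEs of 0.23 to 0.49. Leaving out UT29744 and Smarca5-ps, the intervals of 12 of the other 20 features lay within a log2 ratio of 1 in either direction, and those of the remaining 8 did not. Features of 1 gene lay on the same side of 0 in 38 of 68 comparisons within arrays, or 55.9%, where the share was 50.1% for genes with 2 to 5 features in the whole table.

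Other subunits of ISWI complexes were listed for comparison. They were the histone-fold genes Pole3 and Chrac1 of CHRAC, the histone-binding WD40 genes Rbbp4 and Rbbp7, and Hmgxb4 and Bacc1, which are NURF-associated in human cells. Their 11 features had a median fitted ratio of 0.04, with 4 below 0 and 7 above, and 0 passed the adjusted test. One of 2 Hmgxb4 features, UT13648, had log2 ratios of -0.56, -1.18, -0.51 and -0.69 on replicates 1 to 4, all below 0. Its fitted ratio was -0.75 ± 0.25 (SE, limma p 0.0259, adjusted p 1.00), and it was the only feature of this list at an unadjusted p under 0.05. The other Hmgxb4 feature, UT18998, gave -0.13, 0.11, 0.60 and 0.35, with a fitted ratio of 0.19 ± 0.25 (SE), so both features of the gene differed in sign.

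Genes of B-WICH, a larger WICH assembly at ribosomal RNA genes, gave a median of 0.05 over 11 features of 6 genes (Myo1c, Ddx21, Mybbp1a, Ercc6, Dek and Sf3b1), with 5 below 0 and 6 above. None reached an unadjusted limma p under 0.05 (0 in each direction), and 0 passed after adjustment. Ddx21, an RNA helicase gene of the nucleolus, was below 0 on all arrays, at -0.13, -0.35, -0.37 and -0.14, and so was the splicing factor gene Sf3b1, at -0.62, -0.02, -0.13 and -0.55. Their fitted ratios were -0.28 ± 0.22 and -0.26 ± 0.25 (SE).

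ATPases of other Snf2 families had 53 features from 28 genes. Their median fitted ratio was -0.01, with 27 below 0 and 26 above, and 0 passed the adjusted test or reached an unadjusted p under 0.05. On all 4 arrays 3 features were below 0 and 3 above, or 5.66% each, close to the shares over all features. Smarca4 (Brg1) and Smarca2 (Brm), the ATPases of SWI/SNF complexes, had fitted ratios of 0.01 ± 0.33 and -0.06 ± 0.29 (SE). On replicate 1, 38 of the 53 features were below 0, with a median of -0.40, and the medians on replicates 2 to 4 were 0.17, 0.20 and -0.11. The Smarca5-named feature was at -0.36 on that array, close to the median of these other ATPases.

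**Figure D3:**
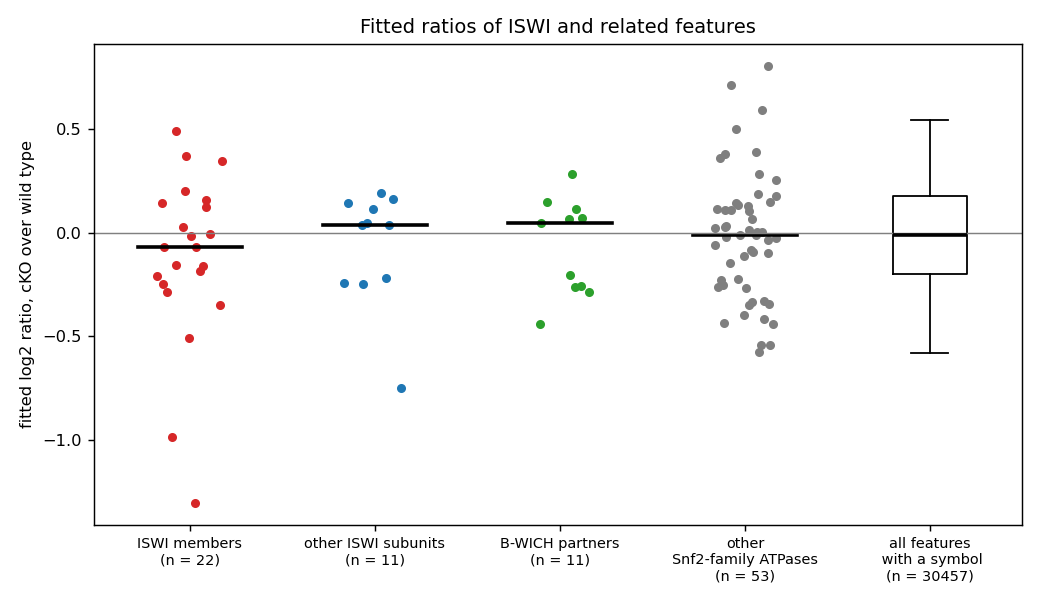
Fitted log2 ratios of cKO over wild type (y axis) for the ISWI members and the 3 comparison lists, 1 point per feature with the median as a black bar. The box on the right gives the median and quartiles of all 30457 features, with whiskers from 5% to 95%. The lowest points among the members are Smarca5-ps (-1.30) and Smarca5 UT29744 (-0.99), and the other members lie between -0.51 and 0.49.

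Features with ratios most like those of the Smarca5-named feature were sought by Euclidean distance over the 4 arrays, among 15739 features with a current gene symbol that is no clone name and no member. The nearest 5 belonged to Pcdhb4, Lrp1, Cldn10, Sin3b and Pcdhb22, at distances of 0.207 to 0.470. They were picked on these same ratios, so their low values follow from the search. Whether any of these genes is linked to Smarca5 was not tested. The feature of Pcdhb4, a clustered protocadherin gene, had -0.20, -1.15, -1.48 and -0.87 on replicates 1 to 4. That of Pcdhb22, of the same gene cluster, had -0.70, -1.32, -1.19 and -0.91. Neither gene had another feature to set beside it, and the other genes of the cluster are not described here. Sin3b, a corepressor scaffold gene, had -0.41, -1.25, -1.09 and -0.95, but its other feature had a fitted ratio of 0.03. The other 4 features of Cldn10 lay between -0.06 and 0.46, and the 94 other features of Lrp1 had a median of -0.08. Smarca5-ps was at a distance of 1.49, with 696 of the searched features closer to Smarca5, and Smarca1 and the clone-named Smarca5 feature were at 2.21 and 2.49.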

How the data were processed

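The authors deposited 1 log2 ratio per feature and array (the base is not stated in the sources used here and was taken as 2). Per the labels, RNA came from Trizol extracts and a dendrimer kit was used for labelling. No source used here gives the authors' normalization or filters, and scanner intensities were not used here, so dim features were not removed and the number of arrays limits the precision.

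Features were named from the platform annotation and updated through RefSeq (GRCm38.p6, names only). Of the symbols, 12795 were current, 8317 were replaced through a synonym pointing to 1 gene and 364 were kept. Bacc1 was found under 0610010K14Rik. The 8423 features without a symbol were left out.

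The median of each array was subtracted, and ratios were fitted with limma 3.58.1 in R 4.3.3 (intercept alone, two-sided, Benjamini-Hochberg over 30457 features, threshold 0.05). A correlation of 0.5 was set between arrays with a common RNA sample. Replicate 4 then has a weight of 0 in the estimate and the other arrays 0.333 each, but replicate 4 enters the residual variance. The estimate therefore rests on 2 arrays with cKO in Cy5 and 1 with cKO in Cy3. When replicate 1 or 3 is left out, replicate 4 gains weight in the estimate. Across features the arrays sharing RNA correlated at -0.000666 (replicates 1 and 4) and -0.09 (3 and 4), well under the 0.5 assumed, so means over all 4 arrays and fits as independent arrays are given as well. The p-values measure the spread between these arrays and samples, which may be partly technical. Differences between features were tested by exact sign flips over arrays, which take the arrays as independent. The named genes were every member feature, the members of 3 lists and the 5 features nearest to Smarca5. The members and lists were chosen with earlier results of these data known. Alternatives were independent arrays, a dye term, turned dye-flip columns, other centring, every feature, averaging per gene and leaving out each array.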

Additional observations from a re-analysis of the deposited data

Results flagged for a closer look

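The median log2 ratio over the 22 ISWI member features was -0.24 on replicate 3, far from the other arrays, where it was 0.05, 0.09 and 0.10 on replicates 1, 2 and 4. On replicate 3, 15 of the 22 features lay below 0. Replicate 4 used the same cKO sample, and there 9 of 22 lay below 0. This was the single case among 29 feature and list values compared in the same manner, of which about 1.45 are flagged by chance. Without replicate 3 the median fitted ratio of the members was -0.03, against -0.07 in the main fit, where replicate 4 has no weight. Replicate 4 gains weight when replicate 3 is left out, so this change is not that of replicate 3 alone.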

How the results depend on the processing

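No member feature passed an adjusted p of 0.05 in any of the 11 alternatives (0 of 242 values). The smallest adjusted p was 0.998. The fitted ratio of Smarca5 UT29744 stayed below 0 in each, at -1.12 to -0.82 when an array was left out, and that of Smarca5-ps at -1.59 to -1.16. Leaving out replicate 4 could not change these estimates, as it has a weight of 0 in the main fit. Fitting every feature could not either, as the same medians were subtracted. The sign of UT29744 had also been used to choose the direction. Signs differed from the fitted ones in 30 values of 13 features, none of them called. With dye-flip columns turned the values were -0.073 (Smarca5 UT02083), 0.067 (Smarca1), 0.46 (Baz1a UT03691), -0.033 (Baz2a UT17619), -0.00333 (Baz2a UT32484), -0.14 (Baz2b UT36239), 0.39 and 0.22 (Bptf UT04134 and UT33922) and 0.087 (Cecr2 UT32188), and the differences of Smarca5 from Smarca1 and from the clone-named feature were 0.025 and 0.205. Averaged per gene they were -0.42 (Smarca5), -0.13 (Baz1a), 0.029 (Baz2a), 0.095 (Baz2b), -0.086 (Bptf) and 0.21 (Cecr2). Each of these averages takes in all features of the gene, so a changed sign there shows that its features differ. As independent arrays, with or without a dye term, Smarca1 had 0.0375, Baz2b UT08646 0.165 and UT36239 -0.045. Smarca1 had 0.00333 without centring and 0.00465 centred on the mean. Leaving out an array gave -0.05 to 0.079 for Smarca1, -0.75 to 0.16 for Baz1a UT03691, -0.16 to 0.29 for Baz2b UT08646, -0.17 to 0.20 for Baz2b UT36239 and -0.24 to 0.24 for Bptf UT04134. Over all features the count past the threshold was 0, and 2 with dye-flip columns turned (Grap2 and Sec14l1). Before turning, the ratios of both changed sign with the dye, as did the medians of the features taken to be single-dye signals. If those are such signals, the turned columns are wrongly oriented. The ratios before turning were 4.13, -4.17, 4.2 and -3.83 for Grap2 and 6.28, -7.94, 7.18 and -7.29 for Sec14l1 on replicates 1 to 4. At an unadjusted p under 0.05 the count over all features was 421, but 1410 with independent arrays. It was 1406 with a dye term as well, 169 without replicate 2 and 1360 without replicate 4. The cause of the shifts in this unadjusted count was not tested. Each ratio already pairs cKO and wild-type RNA within an array. No paired analysis was possible beyond that because the arrays form 1 group, with no second group to share replicate numbers.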
